A study of Mus musculus with 13 samples.

Results

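The 43 lysosomal genes described here encode soluble hydrolases of the lysosome, their activators and carriers, proteins of the lysosomal membrane, subunits of its proton pump and a regulator of lysosomal gene expression. They were taken by gene symbol from the deposited annotation of 55401 genes, with the cathepsins left out, and each symbol had 1 row. Of the 43 genes, 42 passed the filter on low counts and were tested. Acp5, a tartrate-resistant acid phosphatase, did not pass, with 0 to 9 counts per library and a mean of 0.990 ± 0.642 TPM in CTL (SD, n = 5), 1.09 ± 1.16 TPM in CPZ (n = 4) and 0.265 ± 0.351 TPM in RCV (n = 4). TPM gives the share of a library's transcripts that a gene holds, scaled by transcript length, which allows comparison between genes.

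The genes were followed in bulk RNA-seq of 1 snap-frozen brain hemisphere from each of 13 male wild-type C57BL/6J mice. The labels give an age of 6 to 8 weeks, and the paper states an older age for mice at purchase. Neither is read here as the age at tissue collection. CPZ mice (4 libraries) received chow with 0.3% cuprizone, a copper chelator that injures oligodendrocytes, for 4 weeks. RCV mice (4 libraries) received the same chow for 4 weeks and normal chow for a further 2 weeks, and CTL mice (5 libraries) received normal chow for 6 weeks. RCV libraries have titles starting with Veh and were grouped by the label recovery in the treatment field. CPZ mice were therefore in the feeding scheme for 4 weeks and the mice of the other groups for 6 weeks.

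Lysosomes are acidic compartments in which proteins, glycolipids, glycosaminoglycans, glycogen and lipids taken up from outside or delivered by autophagy are broken down. Most hydrolases reach them by a mannose 6-phosphate tag, work at the low pH kept by a vacuolar proton pump, and depend on activators and membrane transporters. The transcription factor Tfeb, itself one of the 43 genes, activates many lysosomal genes through a motif with the E-box CACGTG at its core. In demyelinated brain, microglia take up myelin debris, which is rich in cholesterol, galactolipids and other sphingolipids that lysosomes degrade. Inherited loss of several of these enzymes, such as galactosylceramidase or arylsulfatase A, causes leukodystrophies.

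Libraries held 4605100 to 8197289 estimated counts, and the 43 genes took 0.444% to 0.514% of them in CTL, 0.535% to 0.647% in CPZ and 0.449% to 0.496% in RCV. The defining markers listed for the main cells of brain were present. All 10 genes of mature oligodendrocytes were called lower in CPZ than in CTL, and the 14 microglial genes all passed in the other direction. The 6 neuronal genes were not called in any comparison by edgeR, DESeq2 or limma-voom, and none had an unadjusted p under 0.05 by edgeR. RCV replicates 3 and 4 stood apart by markers of choroid plexus, the secretory tissue of the brain ventricles. The summed level of its 5 genes was 9.58 and 11.7 TPM in these libraries, against 907 and 2672 TPM in the other RCV libraries, 744 to 5120.5 TPM in CTL and 1141 to 4337 TPM in CPZ. Calls that were lost when this level entered the fit are given beside the results.

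The question of the first comparison was which of these genes differed at the end of cuprizone feeding. At that time 22 of the 42 tested genes were higher in CPZ than in CTL and none was lower. The test was the quasi-likelihood F test of edgeR, adjusted over 14985 genes by the method of Benjamini and Hochberg, at a threshold of 0.05. Over all tested genes, 7.66% were called higher and 2.50% lower. By an unadjusted p under 0.05, 24 of the 42 genes passed and 22.1% of all genes, and both the DESeq2 Wald test and limma-voom called 22 genes. Over the 42 genes the median log2 fold change was 0.33, against a median of -0.02 over all genes, and the range went from -0.34 for Gaa to 2.64 for Grn. Fold changes exceeded 2 for 10 of the called genes and were under 1.5 for 9. In 20 of the 42 genes the TPM values of CPZ and CTL libraries did not overlap, as in 11.4% of all tested genes. A bulk library cannot tell more cells of a type from more RNA per cell, which applies to every result here.

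**Figure D1:**
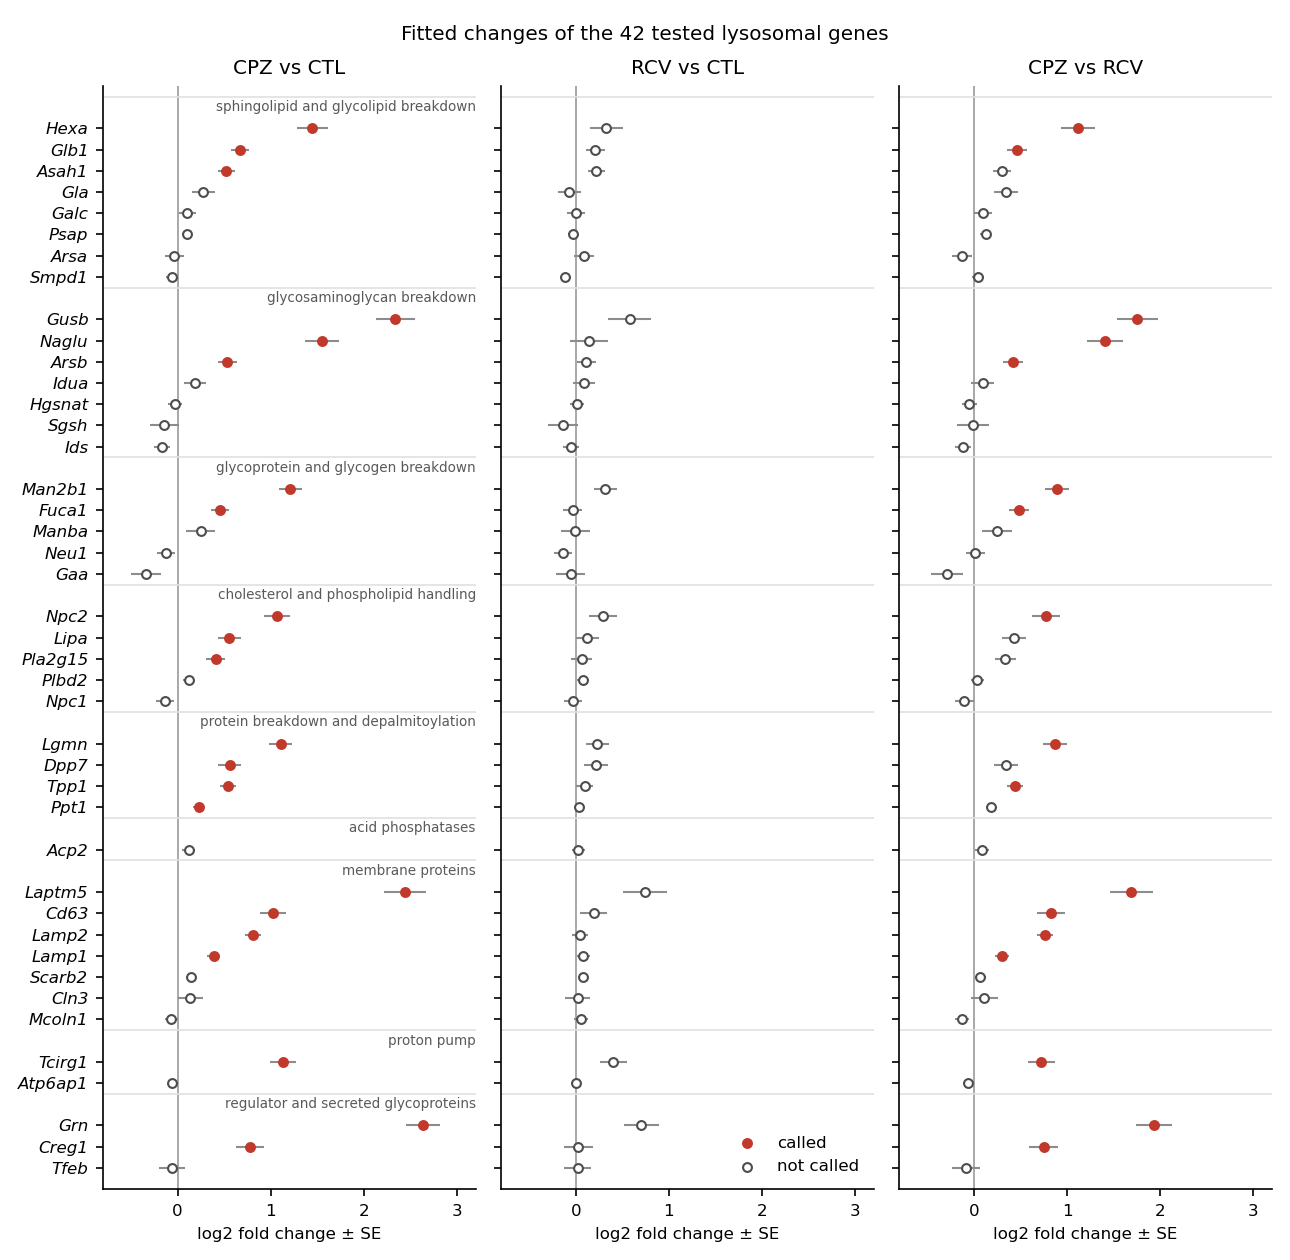
Fitted log2 fold changes of the 42 tested lysosomal genes, grouped by role, in 3 panels, with CPZ and RCV each set against CTL and CPZ set against RCV. The horizontal axis is the log2 fold change, the bars are standard errors, and filled points passed an adjusted p of 0.05. In CPZ against CTL 22 points are filled, in RCV against CTL none, and in CPZ against RCV 17, and all filled points lie above 0.

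The E-box was searched in promoters because Tfeb and its relatives bind it. RefSeq promoters of 250 bases before to 50 bases after the start site (GRCm38.p6) were matched by symbol for 39 of the 43 genes. Not matched were Asah1, Hgsnat, Plbd2 and Npc1. CACGTG, which reads the same on both strands, was in a promoter of 11 of the 39 genes, or 28.2%, and in 8.09% of 27025 symbols with promoters of the same length. The longer form TCACGTGA, which contains CACGTG, was in 4 of 39 genes, or 10.3%, and in 1.12% of all symbols. By response, CACGTG was in 5 of 21 genes called higher in CPZ, or 23.8%, and in 6 of 18 that were not called or not tested, or 33.3%. The promoters of Grn, Laptm5 and Gusb, the genes with the largest changes, held no CACGTG in the 300 bases searched. For Grn and Laptm5, all 100 bases just before the RefSeq start were exon in the GENCODE annotation, whose gene starts lie further upstream. The absence of the motif in Grn and Laptm5 therefore holds for the searched stretch and not for the full region before those starts. The Lgmn window printed below also lies inside its GENCODE gene, which on the minus strand starts at base 102439813. These are letters in a window and were not tested as binding sites. The 8 windows of 100 bases below, printed 5′ to 3′ on the strand of the gene with the motifs in capitals, show genes called higher with the motif, genes not called with the motif, and Gusb, which was called higher without it.
Lamp1 (called higher, chr8:13159060-13159159, plus strand): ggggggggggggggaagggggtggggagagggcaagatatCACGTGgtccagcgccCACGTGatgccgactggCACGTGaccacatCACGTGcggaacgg
Lgmn (called higher, chr12:102439093-102439192, minus strand): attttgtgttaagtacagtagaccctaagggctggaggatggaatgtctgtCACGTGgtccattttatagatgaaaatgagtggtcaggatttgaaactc
Glb1 (called higher, chr9:114400978-114401077, plus strand): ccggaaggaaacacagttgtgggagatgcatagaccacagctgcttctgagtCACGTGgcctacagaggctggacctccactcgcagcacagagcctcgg
Dpp7 (called higher, chr2:25356346-25356445, minus strand): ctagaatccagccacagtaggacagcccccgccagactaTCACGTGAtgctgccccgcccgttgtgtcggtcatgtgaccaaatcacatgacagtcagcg
Gla (not called, chrX:134601156-134601255, minus strand): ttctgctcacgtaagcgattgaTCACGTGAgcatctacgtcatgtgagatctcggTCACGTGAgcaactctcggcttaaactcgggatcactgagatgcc
Arsa (not called, chr15:89477425-89477524, minus strand): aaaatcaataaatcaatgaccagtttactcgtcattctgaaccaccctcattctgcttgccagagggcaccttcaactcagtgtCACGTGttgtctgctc
Gaa (not called, chr11:119267783-119267882, plus strand): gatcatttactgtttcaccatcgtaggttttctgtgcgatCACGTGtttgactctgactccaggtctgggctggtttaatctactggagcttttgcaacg
Gusb (called higher, chr5:130003050-130003149, minus strand): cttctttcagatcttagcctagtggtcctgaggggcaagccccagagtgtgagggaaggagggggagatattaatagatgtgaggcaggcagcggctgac
The Lamp1 window holds 4 copies, the first bases of which lie 61, 45, 28 and 15 bases before the RefSeq start.

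Among the 8 enzymes and activators of sphingolipid and glycolipid breakdown, 3 were higher in CPZ and 5 were not called. Hexa (ENSMUSG00000025232.8, chr9:59539540-59565109) encodes the alpha subunit of beta-hexosaminidase, which removes terminal N-acetylhexosamines from gangliosides. Its TPM values were 37.2, 43.02, 44.5, 49.0 and 42.8 in CTL, 145, 143, 81.0 and 94.1 in CPZ, and 52.0, 60.5, 41.5 and 59.9 in RCV. Every CPZ library was above every CTL and every RCV library, whereas CTL and RCV overlapped. The log2 fold change between CPZ and CTL was 1.45 ± 0.17 (SE), or 2.72-fold, with an adjusted p of 5.81e-05 by edgeR. The exons of Hexa overlap those of Tmem202 on the opposite strand over 255 bases, and Tmem202 held 112 counts in all libraries together.

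Glb1, a beta-galactosidase that degrades GM1 ganglioside, rose from 21.7 ± 2.09 TPM in CTL to 34.1 ± 3.76 TPM in CPZ, with a log2 fold change of 0.67 ± 0.10 (SE; edgeR adjusted p = 0.00017). Asah1, the acid ceramidase, rose from 37.1 ± 3.91 to 51.5 ± 6.19 TPM, with a log2 fold change of 0.52 ± 0.09 (SE; edgeR adjusted p = 0.00074). The enzymes of the main myelin galactolipids were not called. Galc, the galactosylceramidase, had 20.5 ± 2.02 TPM in CTL, 21.5 ± 3.96 TPM in CPZ and 21.9 ± 2.58 TPM in RCV, with a log2 fold change of 0.10 ± 0.09 between CPZ and CTL. Arsa, the arylsulfatase that acts on sulfatide, had 28.4 ± 4.43, 26.6 ± 4.76 and 27.7 ± 2.22 TPM, with a log2 fold change of -0.03 ± 0.10. Smpd1, the acid sphingomyelinase, had 96.7 ± 7.09, 90.7 ± 4.68 and 88.0 ± 3.16 TPM, and Gla, the alpha-galactosidase of globosides, had 8.80 ± 1.34, 10.5 ± 0.975 and 8.26 ± 0.687 TPM. For Gla the log2 fold change was 0.28 ± 0.12 (edgeR adjusted p = 0.179).

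Psap (ENSMUSG00000004207.14, chr10:60277627-60302597), the precursor of the saposins that present sphingolipids to these enzymes, had the highest level of the 43 genes. It was at 1107, 1096, 1149, 1239 and 1201 TPM in CTL, 1307, 1216, 1181 and 1157 TPM in CPZ, and 1170.2, 1141, 1054 and 1087 TPM in RCV. The 3 groups overlapped. The log2 fold change between CPZ and CTL was 0.10 ± 0.05 (SE; edgeR adjusted p = 0.331). Psap alone took 30.7% ± 0.439 of the summed TPM of the 43 genes in CTL, 25.5% ± 1.41 in CPZ and 29.0% ± 0.927 in RCV.

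Of the 7 enzymes of glycosaminoglycan breakdown, 3 rose and 4 were not called. Gusb (ENSMUSG00000025534.17, chr5:129989011-130003049), the beta-glucuronidase, was at 12.9, 15, 17.6, 14.9 and 13.1 TPM in CTL, 72.7, 77.0, 38.4 and 50.4 TPM in CPZ, and 17.1, 24.3, 18.6 and 18.9 TPM in RCV. All CPZ values lay above all others, while the lowest RCV value was inside the CTL range. The log2 fold change between CPZ and CTL was 2.34 ± 0.21 (SE), or 5.05-fold, with an edgeR adjusted p of 6.33e-06. Naglu (ENSMUSG00000001751.9, chr11:101070012-101077672), an alpha-N-acetylglucosaminidase of heparan sulfate, was at 8.23, 8.04, 6.15, 9.08 and 6.62 TPM in CTL, 24.2, 29.0, 14.7 and 17.4 TPM in CPZ, and 7.90, 9.35, 7.35 and 7.27 TPM in RCV. CPZ again stood above both other groups, and RCV lay within the CTL range except for 1 library just above it. Its log2 fold change was 1.55 ± 0.18 (SE; edgeR adjusted p = 2.01e-05).

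Arsb, the arylsulfatase of dermatan and chondroitin sulfate, rose from 59.7 ± 5.35 to 84.4 ± 14.7 TPM, with a log2 fold change of 0.53 ± 0.10 (edgeR adjusted p = 0.0022). The other heparan sulfate enzymes did not pass the test. Sgsh, the sulfamidase, had 6.63 ± 2.36 TPM in CTL and 6.42 ± 1.07 TPM in CPZ. Hgsnat, the membrane-bound acetyltransferase, had 45.9 ± 3.29 and 48.6 ± 3.10 TPM, and Idua, the alpha-L-iduronidase, had 19.7 ± 2.73 and 21.1 ± 3.61 TPM. Ids, the iduronate 2-sulfatase, was 1 of 5 genes above 200 TPM in CTL, at 214 ± 30.1 TPM, and was at 182 ± 3.79 TPM in CPZ (log2 fold change -0.17 ± 0.08, edgeR adjusted p = 0.24).

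Of the 5 enzymes of glycoprotein and glycogen breakdown, 2 rose. Man2b1 (ENSMUSG00000005142.10, chr8:85083270-85098282), the lysosomal alpha-mannosidase, was at 26.8, 32.8, 35.6, 35.7 and 26.7 TPM in CTL, 97.1, 75.3, 54.5 and 60.9 TPM in CPZ, and 36.1, 50.3, 31.7 and 37.2 TPM in RCV. The CPZ values did not overlap with those of the other groups. Its log2 fold change was 1.21 ± 0.12 (SE), or 2.31-fold, with an edgeR adjusted p of 7.99e-06. Fuca1, the alpha-L-fucosidase, was called on the counts, with a log2 fold change of 0.46 ± 0.10 (edgeR adjusted p = 0.0049). On the TPM scale Fuca1 was at 55.0 ± 12.0 in CTL and 56.3 ± 5.75 in CPZ, and limma on log2(TPM + 1) gave 0.05 ± 0.13 with an adjusted p of 0.905. The rise in Fuca1 was therefore seen in counts and not in TPM, which is scaled by transcript length.

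Manba, the beta-mannosidase, had 9.34 ± 2.88 TPM in CTL and 10.8 ± 3.28 TPM in CPZ, and Neu1, the sialidase, had 37.3 ± 4.63 and 33.1 ± 0.794 TPM. Gaa, the acid alpha-glucosidase that degrades glycogen, had the lowest log2 fold change of the 42 genes, -0.34 ± 0.16 (edgeR adjusted p = 0.232). Its levels were 268 ± 69.9 TPM in CTL, 205 ± 24.0 TPM in CPZ and 252 ± 34.7 TPM in RCV, and the groups overlapped.

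For cholesterol and phospholipid handling, 3 of 5 genes rose. Of the 2 proteins that pass cholesterol out of the lysosome, Npc2 was called and Npc1 was not, and the difference between them was not tested. Npc2, the soluble carrier, rose from 34.1 ± 5.83 to 70.3 ± 13.9 TPM (log2 fold change 1.07 ± 0.14, edgeR adjusted p = 0.00015), with no overlap between the groups. Npc1, the membrane protein that receives cholesterol from it, had 49.3 ± 5.65 and 42.4 ± 4.36 TPM (log2 fold change -0.13 ± 0.10, edgeR adjusted p = 0.48). Lipa, the acid lipase of cholesteryl esters, rose from 17.5 ± 1.96 to 24.3 ± 3.18 TPM (log2 fold change 0.56 ± 0.12, edgeR adjusted p = 0.0055). Pla2g15, a lysosomal phospholipase, had a log2 fold change of 0.41 ± 0.11 (edgeR adjusted p = 0.021), which was not called without CPZ replicate 1 (adjusted p = 0.0624) or CPZ replicate 2 (adjusted p = 0.0994). Plbd2, a phospholipase B-like protein, had 40.5 ± 2.25 and 46.3 ± 2.92 TPM and was not called.

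All 4 genes of protein breakdown and depalmitoylation rose. Lgmn (ENSMUSG00000021190.14, chr12:102394084-102439813), the asparaginyl endopeptidase legumain, was at 121, 119, 128, 127 and 120.4 TPM in CTL, 298, 309, 191 and 243 TPM in CPZ, and 143, 173, 117 and 140.5 TPM in RCV. CPZ lay above both other groups, and 3 of 4 RCV libraries lay above the CTL range. Lgmn had a log2 fold change of 1.11 ± 0.12 (SE), or 2.16-fold, with an edgeR adjusted p of 2.19e-05. The serine peptidase Dpp7 rose by a log2 fold change of 0.56 ± 0.12 (edgeR adjusted p = 0.0061), and the tripeptidyl peptidase Tpp1 by 0.54 ± 0.09 (edgeR adjusted p = 0.00038). Ppt1, the palmitoyl-protein thioesterase, had the smallest called change, 0.23 ± 0.06 (edgeR adjusted p = 0.020). It was not called without CTL replicate 3 or without CPZ replicate 1, 2 or 4, with adjusted p values of 0.0509 to 0.082. Acp2, a lysosomal acid phosphatase, had 45.9 ± 7.39 and 45.4 ± 3.02 TPM and was not called.

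**Figure D2:**
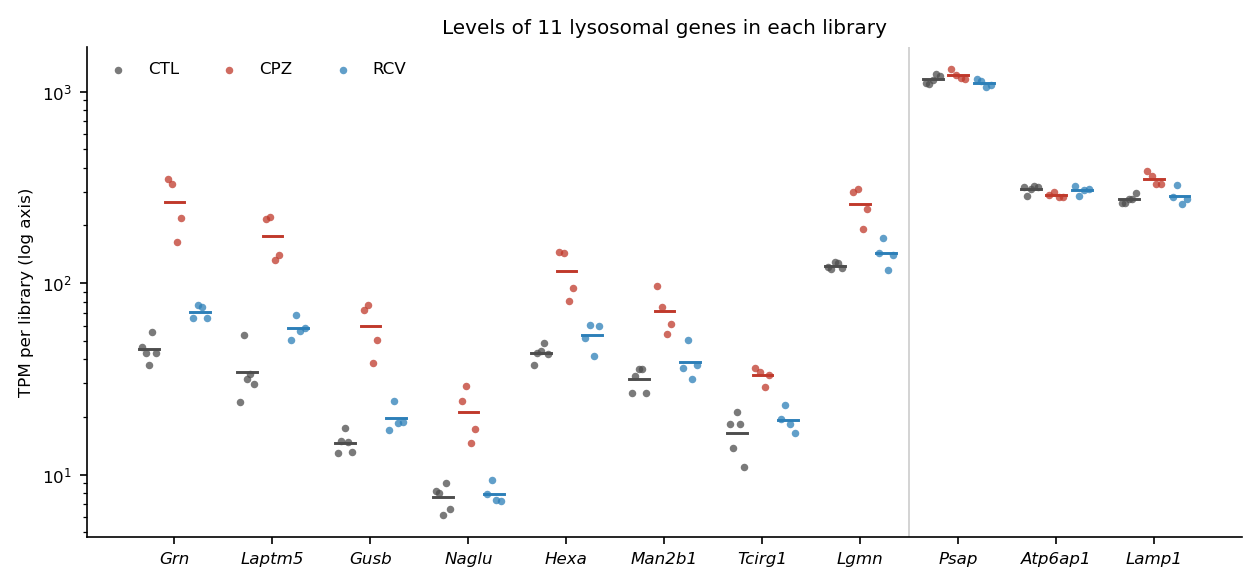
TPM on a log axis in each library for the 8 genes with the largest called rise in CPZ against CTL (left of the line) and the 3 genes with the highest mean level (right of the line). Points are libraries, in grey for CTL, red for CPZ and blue for RCV, and bars are group means. For the 8 genes on the left every CPZ point lies above every CTL and RCV point, whereas the groups overlap for Psap and Atp6ap1.

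Of the 7 membrane proteins, 4 rose. Laptm5 (ENSMUSG00000028581.17, chr4:130913125-130936141), a lysosomal transmembrane protein found mainly in hematopoietic cells and microglia, was at 23.9, 53.3, 31.5, 33.5 and 29.7 TPM in CTL, 215, 221, 133 and 139.7 TPM in CPZ, and 50.4, 67.9, 56.3 and 58.5 TPM in RCV. CPZ lay above both other groups, and CTL replicate 2 was the only CTL library inside the RCV range. The log2 fold change between CPZ and CTL was 2.44 ± 0.22 (SE), or 5.41-fold, with an edgeR adjusted p of 1.42e-05. Cd63, a tetraspanin of late endosomes and lysosomes, rose from 101 ± 13.8 to 203 ± 42.7 TPM (log2 fold change 1.02 ± 0.14, edgeR adjusted p = 0.00014).

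The 2 major glycoproteins of the lysosomal membrane both rose. Lamp1 (ENSMUSG00000031447.7, chr8:13159161-13175338) was at 261, 261, 274, 276 and 297 TPM in CTL, 386, 361, 331 and 329 TPM in CPZ, and 282, 326, 259.9 and 274 TPM in RCV. The lowest CPZ value was above the highest values of CTL and RCV, while RCV and CTL overlapped. Lamp1 had a log2 fold change of 0.39 ± 0.07 (SE; edgeR adjusted p = 0.00105). Lamp2 rose from 56.4 ± 6.72 to 96.6 ± 10.6 TPM, with a log2 fold change of 0.81 ± 0.08 (SE; edgeR adjusted p = 5.8e-06). The remaining membrane proteins were not called. Scarb2, the receptor of glucocerebrosidase, had 78.0 ± 3.11 TPM in CTL and 84.6 ± 2.05 TPM in CPZ (edgeR adjusted p = 0.11), with no overlap between these groups. Cln3, whose loss causes a neuronal ceroid lipofuscinosis, had 24.8 ± 3.34 and 25.4 ± 2.28 TPM, and Mcoln1, a cation channel of the lysosomal membrane, had 91.2 ± 3.66 and 82.2 ± 9.67 TPM.

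Of the 2 proton pump proteins among the 43 genes, 1 was called. Tcirg1 (ENSMUSG00000001750.16, chr19:3896050-3907133), an a-subunit of the vacuolar ATPase known from osteoclasts, was at 18.3, 13.8, 21.3, 18.3 and 10.9 TPM in CTL, 36.2, 34.2, 28.6 and 33.3 TPM in CPZ, and 19.5, 23.2, 18.4 and 16.6 TPM in RCV. CPZ lay above both other groups, and CTL and RCV overlapped. Tcirg1 had a log2 fold change of 1.13 ± 0.13 (SE; edgeR adjusted p = 2.42e-05). Atp6ap1 (ENSMUSG00000019087.13, chrX:74297097-74304721), an accessory subunit of the same pump, was at 318, 283, 309, 321 and 317 TPM in CTL, 289.9, 299, 283 and 283 TPM in CPZ, and 321, 286, 306 and 310.4 TPM in RCV. The groups overlapped, and the log2 fold change was -0.06 ± 0.05 (SE; edgeR adjusted p = 0.595).

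Of the regulator and the secreted glycoproteins, 2 of 3 rose. Grn (ENSMUSG00000034708.12, chr11:102430315-102437048), which encodes progranulin, a secreted protein that is taken up into lysosomes and cut into granulins, was at 46.3, 42.99, 37.5, 55.9 and 43.4 TPM in CTL, 349, 328, 164 and 218 TPM in CPZ, and 65.9, 77.2, 74.6 and 65.9 TPM in RCV. The 3 groups did not overlap, with RCV between CTL and CPZ. The log2 fold change between CPZ and CTL was the largest of the 42 genes, 2.64 ± 0.18 (SE), or 6.22-fold, with an edgeR adjusted p of 1.3e-06. Creg1, a secreted glycoprotein found in lysosomes, rose from 30.3 ± 6.18 to 55.2 ± 5.57 TPM (log2 fold change 0.78 ± 0.15, edgeR adjusted p = 0.0024). Tfeb was low in every group, at 9.67 ± 3.17 TPM in CTL, 8.44 ± 1.32 TPM in CPZ and 9.47 ± 1.13 TPM in RCV, and its log2 fold change was -0.06 ± 0.14 (edgeR adjusted p = 0.86). Transcript levels do not report the nuclear transfer through which Tfeb is known to act.

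The second comparison asked what remained after 2 weeks of normal chow. None of the 42 genes was called between RCV and CTL by edgeR, where 0.360% of all genes were called higher and 0.0133% lower. By an unadjusted p under 0.05, 6 of the 42 genes passed and 6.20% of all genes. The DESeq2 Wald test called Grn and Laptm5, as did edgeR fitted to these 2 groups alone, and limma-voom called none. The median log2 fold change was 0.07, against -0.00443 over all genes, and the range was -0.14 to 0.74. The largest values were those of Laptm5 (0.74 ± 0.24, edgeR adjusted p = 0.392), Grn (0.70 ± 0.19, adjusted p = 0.227), Gusb (0.58 ± 0.23, adjusted p = 0.648) and Tcirg1 (0.40 ± 0.14, adjusted p = 0.487). Grn was the only one of the 42 genes without overlap of the TPM values of RCV and CTL, which did not overlap for 2.30% of all tested genes. Without CPZ replicate 3, a library of neither group in this contrast, Grn passed with an adjusted p of 0.00915. Of the 22 genes called in CPZ, 19 had a mean TPM in RCV above that in CTL, and in 14 the RCV mean lay within the CTL range. The 22 genes were chosen by a contrast with the same CTL libraries, and the share over all genes was not counted. Nothing is therefore read from these counts.

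The third comparison set the end of feeding against recovery. Of the 42 genes, 17 were higher in CPZ than in RCV and none was lower by edgeR, where 5.13% of all genes were called higher and 1.88% lower. All 17 were among the 22 genes called against CTL, and the comparisons share the CPZ libraries. By an unadjusted p under 0.05, 24 of the 42 genes passed and 19.1% of all genes, and the DESeq2 Wald test called 18 and limma-voom 17. The median log2 fold change was 0.30, against -0.00664 over all genes, and the range was -0.29 to 1.93. The largest differences were those of Grn (1.93 ± 0.19, or 3.82-fold, edgeR adjusted p = 0.000251), Gusb (1.75 ± 0.22, or 3.37-fold, adjusted p = 0.000447) and Laptm5 (1.69 ± 0.23, or 3.23-fold, adjusted p = 0.00106). The other called genes were Naglu, Hexa, Man2b1, Lgmn, Cd63, Npc2, Lamp2, Creg1, Tcirg1, Fuca1, Glb1, Tpp1, Arsb and Lamp1, with log2 differences of 0.30 to 1.41. Asah1, Lipa, Pla2g15, Dpp7 and Ppt1 were called against CTL but not against RCV, and whether these 2 contrasts differed was not tested. With the choroid plexus score as a covariate, 11 of the 17 genes were called, and Glb1, Fuca1, Npc2, Tpp1, Lamp1 and Creg1 were not. The share over all genes in that fit is not given here. The count was 16 without RCV replicate 3 and 17 without RCV replicate 4. Arsb lost its call without CPZ replicate 1, 2 or 4 or RCV replicate 1 or 2, with adjusted p values of 0.0607 to 0.101, and in the fit of these 2 groups alone (adjusted p = 0.0639). Lamp1 lost its call without CPZ replicate 1 or 2 or RCV replicate 1 or 3, with adjusted p values of 0.0534 to 0.0648.

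Side by side, the log2 fold changes against CTL were 2.64 in CPZ and 0.70 in RCV for Grn, 2.34 and 0.58 for Gusb, 1.45 and 0.33 for Hexa, 1.11 and 0.23 for Lgmn, and 0.81 and 0.04 for Lamp2. These values share the CTL libraries. For 15 of the 22 genes every RCV library was below every CPZ library in TPM, as for 6.05% of all tested genes, but the 22 genes were chosen by their high values in the same CPZ libraries, so nothing is read from this count.

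**Figure D3:**
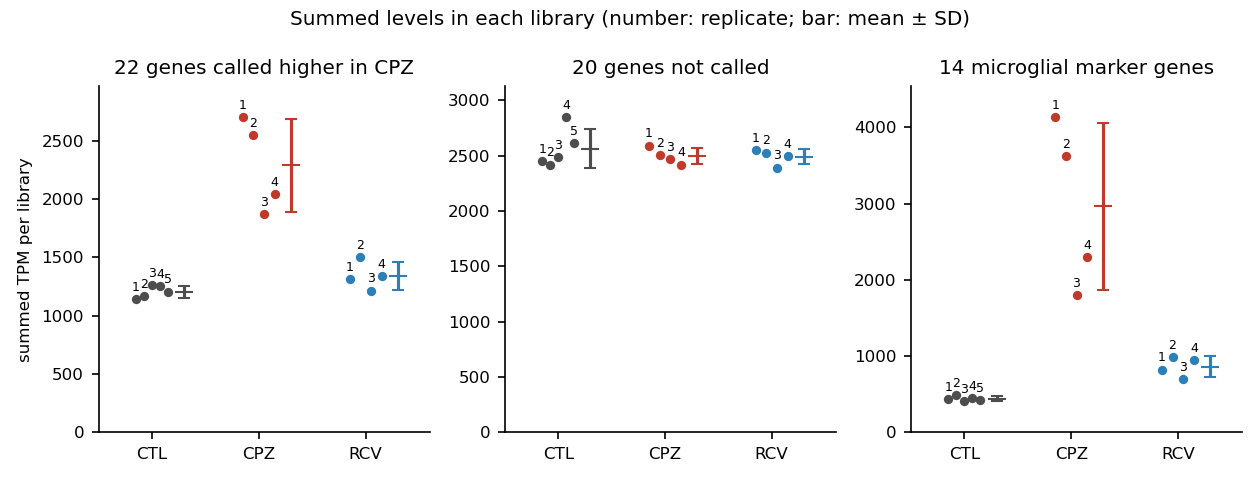
Summed TPM per library of the 22 lysosomal genes called higher in CPZ, the 20 tested genes that were not called, and 14 microglial marker genes, with the replicate number at each point and the mean ± SD beside each group. In CPZ the 22 genes summed to 1871 to 2699.8 TPM and the microglial markers to 1799 to 4129 TPM. Replicates 1 and 2 were highest in both, but the 22 genes were chosen by their values in these libraries. The 20 genes that were not called summed to 2418 to 2591 TPM in CPZ. These values lie inside the CTL range of 2419 to 2845 TPM except for the lowest CPZ value.

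By summed level, the 43 genes rose from 3769 ± 210 TPM in CTL (SD, n = 5) to 4786 ± 460 TPM in CPZ (n = 4), and were at 3833 ± 173 TPM in RCV (n = 4). The 22 called genes made up 1142 to 1261.5 TPM in CTL, 1871 to 2699.8 TPM in CPZ and 1216 to 1501 TPM in RCV. Since these genes were chosen by this contrast, their sum is a description. The 20 genes that were not called, among them Psap, Atp6ap1, Gaa and Ids, held the larger part in every CTL and RCV library. By share of the sum, Grn went from 1.20% ± 0.14 in CTL to 5.44% ± 1.35 in CPZ, Laptm5 from 0.917% ± 0.325 to 3.66% ± 0.661, and Lgmn from 3.27% ± 0.142 to 5.40% ± 0.712, while Gaa went from 7.05% ± 1.48 to 4.33% ± 0.828.

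Microglial markers were also highest in CPZ. The 14 markers, such as Csf1r, Trem2 and the C1q genes, summed to 413 to 490.2 TPM in CTL, 1799 to 4129 TPM in CPZ and 694 to 988 TPM in RCV. Each of the 14 passed the test against CTL and against RCV with higher levels in CPZ, and none was called by edgeR between RCV and CTL, where 11 had an unadjusted p under 0.05 and the median log2 fold change was 0.88. In that comparison the DESeq2 Wald test called 8 of the 14 and limma-voom none. By summed level, the CPZ libraries had the same order for the markers and the 22 called genes. Microglial markers summed to 4129, 3625, 1799 and 2302 TPM in CPZ replicates 1 to 4, and the 22 lysosomal genes to 2699.8, 2549, 1871 and 2042 TPM. Replicates 1 and 2 were both above replicates 3 and 4 for 18 of the 22 called genes, 6 of the 20 genes that were not called and 14 of the 14 microglial markers. The share over all genes was not counted, and the 22 genes were chosen by their values in these 4 libraries. Nothing is therefore read from this order or from these counts. Markers of mature oligodendrocytes went the other way, at 1946 to 3658 TPM in CTL, 780.1 to 1259.9 TPM in CPZ and 2627 to 4344 TPM in RCV. Of 6 astrocyte genes 4 passed the test with higher levels in CPZ than in CTL, with Gfap, an intermediate filament of reactive astrocytes, at a log2 fold change of 2.43. Between RCV and CTL, 2 of the 6 were still higher, Gfap by 1.80 ± 0.15 (edgeR adjusted p = 0.000109) and the water channel gene Aqp4 by 0.44 ± 0.09 (adjusted p = 0.0384). The DESeq2 Wald test called 2 of the 6 there and limma-voom 1. Of 5 endothelial genes none was called between CPZ and CTL by edgeR (1 with an unadjusted p under 0.05), DESeq2 or limma-voom. Cldn5, a tight junction protein, was lower in RCV than in CTL by a log2 fold change of -0.68 ± 0.12 (edgeR adjusted p = 0.0263). Between RCV and CTL the DESeq2 Wald test called 1 of the 5 and limma-voom none. Of 6 genes of blood monocytes and border macrophages, 5 did not pass the count filter, with at most 8 counts in any library, and Mrc1 was not called. The part of these cells in the changes of the lysosomal genes was not tested.

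Other lysosomal genes were taken from a list of 59 symbols, of which 56 were tested. The list was chosen with earlier results of these data known. Tmem55b had no row, and Atp6v0d2 and Tfec did not pass the count filter. Between CPZ and CTL, 15 were called higher and 1 lower, with a median log2 fold change of 0.08 over the 56 genes. Over all tested genes 7.66% were called higher and 2.50% lower. Of 12 other hydrolases and activators 10 were higher, with a median of 0.69. Of 17 subunits of the vacuolar ATPase none was called, with a median of -0.06, a range of -0.17 to 0.30 and 2 genes with an unadjusted p under 0.05 by edgeR, and neither the DESeq2 Wald test nor limma-voom called any. Of 15 other membrane proteins 4 were higher and 1 lower, of 9 genes that sort lysosomal enzymes 1 was higher, and of 3 transcription factors none was called by edgeR (2 with an unadjusted p under 0.05), DESeq2 or limma-voom. Whether the classes differed from each other was not tested.

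**Figure D4:**
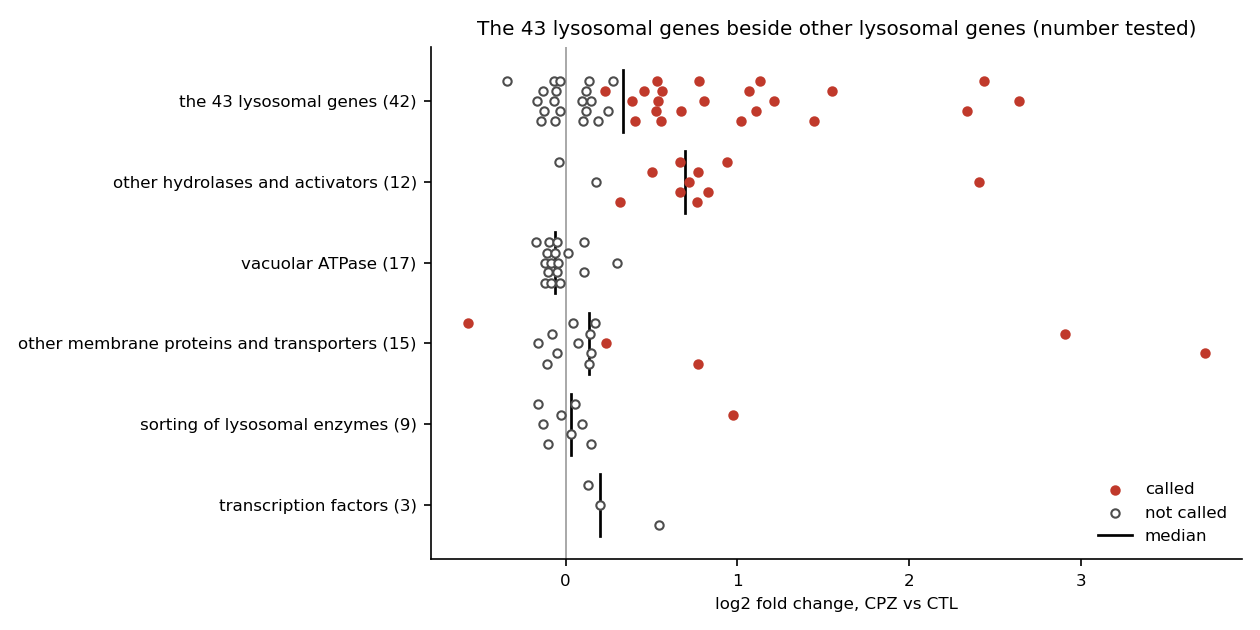
Log2 fold changes between CPZ and CTL of the 42 tested lysosomal genes of this report and of 56 other lysosomal genes in 5 classes, with the number tested in brackets. Points are genes, filled where the adjusted p was under 0.05, and black lines are medians, which lie at 0.33 for the 42 genes, 0.69 for other hydrolases and activators and -0.06 for the vacuolar ATPase.

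Nagpa, which uncovers the mannose 6-phosphate tag of lysosomal enzymes, rose from 9.09 ± 2.80 to 17.4 ± 3.68 TPM (log2 fold change 0.98 ± 0.18, edgeR adjusted p = 0.00139) and was at 7.36 ± 1.19 TPM in RCV. Abca2, a lipid transporter that is abundant in oligodendrocytes, fell from 126 ± 10.1 to 83.9 ± 6.97 TPM (log2 fold change -0.57 ± 0.08, edgeR adjusted p = 0.000157) and was at 125 ± 11.4 TPM in RCV.

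Cd68, a heavily glycosylated protein of the lysosomal membrane in macrophages and microglia, was at 8.93, 17.6, 11.6, 13.5 and 10.5 TPM in CTL, 210.0, 192, 102 and 129 TPM in CPZ, and 31.8, 41.1, 31.2 and 46.0 TPM in RCV. The 3 groups did not overlap, and the log2 fold change between CPZ and CTL was 3.72 ± 0.26 (SE; edgeR adjusted p = 1.24e-06). Slc11a1, a metal ion transporter of phagosomes, was at 4.09 ± 1.62, 24.9 ± 7.35 and 16.1 ± 6.77 TPM, with a log2 fold change of 2.91 ± 0.25 (SE; edgeR adjusted p = 1.2e-06). These 2 were the only tested genes of the list called between RCV and CTL, where 0.360% of all genes were called higher and 0.0133% lower. Cd68 had a log2 fold change of 1.63 ± 0.28 (edgeR adjusted p = 0.0331) and Slc11a1 of 1.76 ± 0.27 (adjusted p = 0.00788). Slc11a1 had only 6 to 20 counts per library in CTL. Without CTL replicate 1, 3, 4 or 5 or RCV replicate 1, 2 or 4, Cd68 lost its call. The edgeR adjusted p values were then 0.0779 to 0.17. Cd68 also lost its call with the choroid plexus score as a covariate (edgeR adjusted p = 0.12), and limma-voom called neither Cd68 nor Slc11a1. Between CPZ and RCV 12 of the 56 genes were called, 11 higher and 1 lower, where 5.13% of all genes were called higher and 1.88% lower. With that covariate 6 were called, and the share over all genes in that fit is not given here.

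The exons of 15 of the 43 genes overlap those of another gene, on the opposite strand for all but Glb1, which shares 165 bases with Tmppe on the same strand. Whether the counting used strand is not given in the sources used here, so reads in these stretches cannot be assigned to 1 gene with certainty.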

How the data were processed

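RNA of 1 hemisphere per mouse was sequenced after poly(A)-selected library preparation. The submitters' processing notes name STAR, RSEM and build mm10, without versions. The authors deposited estimated counts, of which 4.447% of values were not whole, and TPM values per gene. Strand setting is not given in the sources used here. The 92 spike-in rows, all with 0 counts, were left out.

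Estimated counts were rounded, filtered by filterByExpr and scaled by TMM. All 13 libraries were fitted together, with 1 mean per group, by the quasi-likelihood test of edgeR 4.0.16 (R 4.3.3). The same fit was run on counts simulated from its own estimates, and nothing is read from that run. P-values were adjusted by Benjamini-Hochberg over 14985 genes, with a threshold of 0.05. Standard errors are the log2 fold change divided by the square root of F. Alternatives used DESeq2 1.42.0 and limma 3.58.1. Levels and overlaps are TPM. Groups came from the treatment field, and each library was taken as 1 mouse. The labels' protocol text states fewer mice per group than there are libraries, and all 13 libraries were used. P-values measure the spread between these libraries.

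The 43 genes and all lists were chosen with earlier results of these data known. Every library's value is given for the 8 largest called rises, the 3 largest called differences of the other contrasts and the 3 highest levels. Of the other lysosomal genes, the 4 largest called rises and the 3 largest called falls in CPZ against CTL were to be named; 1 fall was called, and 1 of the rises is not reported here. Gene IDs were matched to GENCODE M21 (98.1% of 55401) for positions and exon overlaps, and all coordinates are GRCm38.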

Additional observations from a re-analysis of the deposited data

Results flagged for a closer look

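Each of the 43 lysosomal genes and their summed TPM were examined in the 3 groups. In 4 of these 132 combinations 1 library lay far from the others by Dixon's test at 95%, which chance gives in about 1 in 20 groups. Dpp7 was at 31.9 TPM in RCV replicate 4, against 23.2 to 23.7 TPM in the other RCV libraries. Cd63 was at 266 TPM in CPZ replicate 1, against 177 to 191 TPM in the other CPZ libraries. Tfeb was at 15.2 TPM in CTL replicate 1, against 7.40 to 9.00 TPM in the other CTL libraries. Creg1 was at 46.9 TPM in CPZ replicate 4, against 57.1 to 59.0 TPM in the other CPZ libraries.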

How the results depend on the processing

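No fold change of a called gene reversed. Between CPZ and CTL, 16 of the 22 calls and all 20 genes without a call kept their side of the threshold in every alternative, and the number called was 16 to 22. Fuca1, Lipa, Pla2g15, Tpp1 and Ppt1 lost their call on log2(TPM + 1), and Dpp7 did so there without a filter. Between CPZ and RCV, 9 of 17 calls were kept throughout; 11 genes were called on log2(TPM + 1) without a filter, 11 with the choroid plexus score as a covariate (chosen after seeing the data), and 15 to 19 when 1 library was left out. Between RCV and CTL, where none was called, DESeq2 called 2, the fit of only the groups compared 2, and leaving out 1 library 0 to 1. Of the other lysosomal genes, 2 were called between RCV and CTL, against 3 by DESeq2 and in the fit of only the groups compared. The number was 0 by limma-voom, 1 on log2(TPM + 1) without a filter and 1 without a filter on counts. With at least 10 counts in every library it was 0, but Slc11a1, with 6 to 20 counts in CTL libraries, was not tested there. It was 1 with the choroid plexus covariate and 1 to 2 with 1 library left out. Between CPZ and RCV 12 were called, 6 with that covariate and 9 to 15 with 1 library left out. The cause of these changes was not tested. Groups share replicate numbers. Deviations of same-numbered libraries correlated at -0.199 to 0.136, and those of libraries with different numbers at -0.205 to 0.265. Whether the numbers pair the mice cannot be told from these values. With the replicate number as a block, 21 and 0 of the 42 genes were called against CTL in CPZ and RCV, and 16 between CPZ and RCV. Depth limits Acp5, with 0 to 9 counts per library.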
